A study of Homo sapiens with 4 samples.

Results

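The integrin subunits are the cell surface receptors through which cells hold on to the extracellular matrix. The genes described here are ITGA2, ITGA3, ITGA5, ITGA6, ITGAV, ITGAE, ITGB1, ITGB4, ITGB5 and ITGB8, which were taken by name, 10 of the 60564 gene identifiers counted. Their mRNA was measured by RNA-seq of total RNA, after removal of ribosomal RNA, in Elf1 cells, a line of naïve human embryonic stem cells (ESCs). The 2-D grown cells adhered to plastic coated with Matrigel, a basement membrane extract. The 3-D grown cells were encapsulated as single cells in scaffolds that self-assembled from PEG-8-SH and PEG-8-Acr, 8-arm polyethylene glycol polymers with thiol and acrylate ends, and were kept there for 21 days. Both conditions used the same line and the same expansion medium, with FGF2, LIF, CHIR99021 and PD03296501, and the cells came from feeder-free culture that followed growth on mouse feeders. Each condition had 2 libraries, which the methods call biological replicates without saying how their cultures were kept apart. The Matrigel coating, the dimension of the culture and the time without passaging changed together between the conditions and cannot be told apart.

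An integrin is a pair of 1 α and 1 β chain, and the pair decides the ligand. The β1 chain (ITGB1) joins many α chains: with α2 (ITGA2) it binds collagen, with α3 (ITGA3) and α6 (ITGA6) laminin, and with α5 (ITGA5) fibronectin. The αV chain (ITGAV) pairs with β1, β5 (ITGB5) or β8 (ITGB8) in receptors for ligands with an RGD motif such as vitronectin, fibronectin and latent TGF-β, β4 (ITGB4) pairs with α6 in hemidesmosomes, and αE (ITGAE) pairs with β7 in a receptor for E-cadherin. Human ESCs attach to laminin and to Matrigel mainly through α6β1, and to vitronectin through αVβ5.

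Library totals ran from 18276147 to 33833778 counts, and both 3-D libraries were shallower than both 2-D libraries. Values are CPM (counts per 1000000 counts of the library) normalized by the TMM method of edgeR, and a gene is called where the adjusted p of edgeR's quasi-likelihood test was below 0.05 over the 22555 genes tested. The summed level of 8 markers of pluripotent cells was 5104 and 5074 CPM in 2-D and 5351 and 5212 CPM in 3-D. Of these 8, 1 was called, L1TD1, higher in 3-D, beside 4.54% of all genes tested. The sum of 8 naive markers was 62.9 and 65.1 CPM in 2-D and 66.4 and 62.6 CPM in 3-D, with DPPA5 and ARGFX under 1 CPM in every library. The summed level of 8 fibroblast markers was 541 and 533 CPM in 2-D and 552 and 603 CPM in 3-D, with DCN and LUM under 1 CPM throughout. Of the 6 tested, 4 were called higher in 3-D (COL1A1, COL3A1, THY1 and POSTN), beside 4.54% of all genes tested. COL1A2, the largest part of the sum, was not called. Of 7 trophoblast markers, 5 were under 1 CPM in every library. KRT7 and HAND1, the others, were higher in both 3-D libraries, though not called. The sum of the 7 was 3.92 and 4.80 CPM in 2-D and 5.40 and 5.63 CPM in 3-D. The sum of 6 endoderm markers was 10.1 and 9.83 CPM in 2-D and 11.3 and 11.8 CPM in 3-D. For 6 mesoderm markers it was 67.9 and 67.1 against 72.1 and 73.0 CPM. For 6 neural ectoderm markers, mostly NES, it was 611.8 and 602.5 against 629.7 and 626.8 CPM.

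ITGB1 was the called member. It rose by 12.7% in 3-D grown cells (95% interval 7.48% to 18.1%), and the other 9 subunits did not pass the test. All 10 members passed the filter on low counts, and 1 of 10 called can be set against 7.90% of all genes tested. Of those genes, 4.54% were called higher and 3.36% lower. The fitted values were split evenly, with 5 members above and 5 below 0, and their median log2 fold change was −0.0058, beside −0.0001 over all genes tested. In 7 of the 10 the 2 libraries of one condition lay wholly above those of the other (4 higher and 3 lower in 3-D), beside 50.5% of all genes tested. In bulk RNA, fewer cells of a type and less RNA per cell cannot be told apart, and this holds for each value given here.

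**Figure D1:**
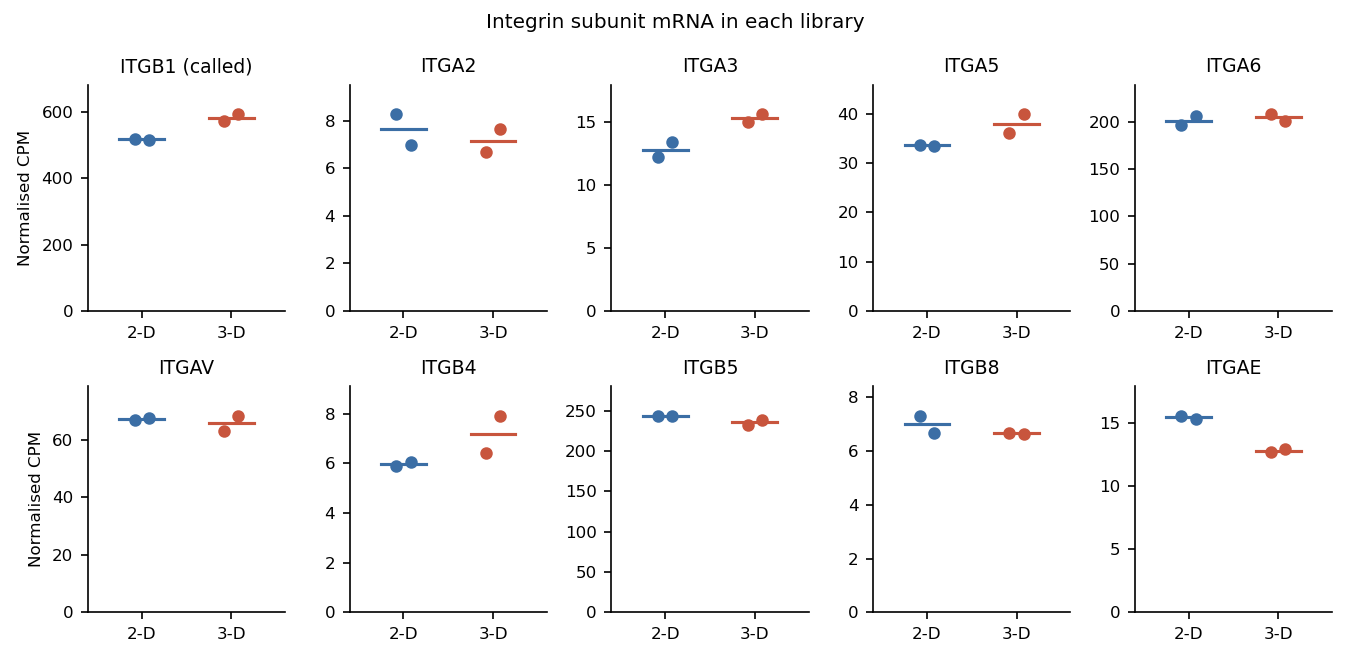
TMM-normalized CPM of each integrin subunit (vertical axes, each starting at 0) in the 2 libraries of 2-D culture (blue) and of 3-D culture (red), with points for libraries and bars for their means. The ITGB1 points lie at 519 and 515 CPM in 2-D and at 572 and 594 CPM in 3-D, while those of ITGA2, ITGA6 and ITGAV overlap between conditions.

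ITGB1 (ENSG00000150093) is annotated on the minus strand of hg38 chromosome 10, from 32887273 to 33005792. It encodes the shared β chain of the laminin, collagen and fibronectin receptors. It was assigned 17875 and 15878 counts under 2-D conditions against 11746 and 10644 under 3-D conditions. Scaled to depth, these were 519 and 515 CPM in 2-D (mean 517 ± 2.67, SD, n = 2) and 572 and 594 CPM in 3-D (583 ± 15.7, SD, n = 2). Both 3-D libraries thus lay above both 2-D libraries, and the gap between conditions was larger than the gap within either. The log2 fold change was 0.17 (SE 0.03), with an adjusted p of 0.00485 in edgeR's quasi-likelihood test, and it was the gene with rank 566 of 22555 by p. Scaling by library size alone lowered the value to 0.11 with an adjusted p of 0.0528, so that the call was lost.

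Part of ITGB1 has a near-identical copy elsewhere. Stretches covering 18.6% and 12.6% of its longest transcript aligned to chr19:14622243-14623288 and chr19:14621535-14622241 with 99.3% and 100% identity, where the processed pseudogene ITGB1P1 is annotated. No other member aligned at a further place. ITGB1P1 itself was assigned 870 and 800 counts in 2-D and 563 and 527 in 3-D, or 4.79% to 5.04% of the ITGB1 counts of the same library. Adding its counts to ITGB1 gave a log2 fold change of 0.17 and an adjusted p of 0.00512. How the counting treated reads that map to both places is not given in the sources used here, and reads dropped for that reason are in neither count.

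The sequence before the start of ITGB1 is shown beside that of ITGAE because these were the members with the smallest p among those with positive and with negative fitted values. Both are the 250 bases before a RefSeq start on the minus strand (GRCh38.p14), at chr10:32958231-32958480 and chr17:3801189-3801438, 5′ to 3′ along the gene. The ITGB1 start lies inside the interval given above, because the GENCODE gene also holds transcripts that begin farther upstream. Capitals mark GGGCGG or its reverse complement CCGCCC, the core of the SP1 box.
ITGB1: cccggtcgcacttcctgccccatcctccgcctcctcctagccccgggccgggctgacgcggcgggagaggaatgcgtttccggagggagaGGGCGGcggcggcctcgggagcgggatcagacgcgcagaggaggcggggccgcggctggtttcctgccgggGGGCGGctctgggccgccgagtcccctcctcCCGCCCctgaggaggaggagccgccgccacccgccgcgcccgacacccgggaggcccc
ITGAE: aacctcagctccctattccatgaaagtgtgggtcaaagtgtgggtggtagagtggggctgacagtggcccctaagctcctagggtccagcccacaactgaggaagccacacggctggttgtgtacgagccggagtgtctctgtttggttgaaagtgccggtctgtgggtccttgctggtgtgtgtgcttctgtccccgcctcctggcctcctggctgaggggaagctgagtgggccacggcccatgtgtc
The ITGB1 stretch holds the box 3 times and the ITGAE stretch does not hold it. In windows from 250 bases before to 50 bases after a start, GC content was 78.3% for ITGB1 and 61.3% for ITGAE, beside a median of 58.7% over 35116 windows of all genes. The table of windows held 13 windows of 8 of the 10 members, of which 9 had the box on either strand, beside 45.0% of all windows. ITGB1 has a second annotated start, whose window had a GC content of 40.7% and lacked the box. These matches describe letters and not factor binding.

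The α chains that pair with β1 were not called in either direction. ITGA5, the fibronectin receptor chain (chr12:54395261-54419266, minus strand), was measured at 33.6 CPM in both libraries of 2-D culture and at 36.2 and 40.0 CPM in those of 3-D culture. The conditions did not overlap, and the log2 fold change was 0.18 (SE 0.06, adjusted p = 0.116). This fitted value was close to that of ITGB1 while its standard error was larger, and the 95% interval ran from 0.04 to 0.32. Without 3-D replicate 1, the lower of the 3-D values, ITGA5 passed the test at 0.25 with an adjusted p of 0.0114. Without 3-D replicate 2, the higher, it was at 0.11 with an adjusted p of 0.407.

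ITGA3, a laminin receptor chain (chr17:50055968-50090481, plus strand), had 12.2 and 13.5 CPM in 2-D and 15.03 and 15.67 CPM in 3-D. The libraries did not overlap here either, and the 2-D libraries differed by more than the 3-D libraries did. The log2 fold change was 0.26 (SE 0.09, 95% interval 0.07 to 0.45), with an adjusted p of 0.101. ITGB1, ITGA3 and ITGA5 are also among the adhesion genes that the study selected on these same samples, so their direction is not independent evidence.

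ITGA6, the laminin receptor chain that joins β1 or β4 (chr2:172427354-172506459, plus strand), was at 197 and 206 CPM in 2-D and at 208 and 201 CPM in 3-D. The conditions overlapped. The log2 fold change was 0.03 (SE 0.03), with a 95% interval of −0.05 to 0.10 and an adjusted p of 0.746. With scaling by library size alone the fitted value of ITGA6 was −0.04.

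ITGA2, the collagen receptor chain (chr5:52989340-53094779, plus strand), was measured at 8.28 and 6.98 CPM in 2-D and at 6.67 and 7.64 CPM in 3-D. Its libraries overlapped, and with 137 to 285 counts per library the 95% interval of its log2 fold change was wide, from −0.37 to 0.18. The sign of its fitted value of −0.10 turned when 2-D replicate 1 (0.03) or 3-D replicate 1 (0.0009) was left out.

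ITGAV (chr2:186590010-186680901, plus strand) encodes the α chain of the RGD receptors and had 67.0 and 67.8 CPM in 2-D and 63.1 and 68.5 CPM in 3-D. The lowest and the highest of the 4 values were both from 3-D libraries. Its log2 fold change was −0.04 (SE 0.04, adjusted p = 0.705), and 0.02 without 3-D replicate 1.

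Of its β partners, ITGB5, the vitronectin receptor chain (chr3:124761948-124901418, minus strand), was at 244 and 243 CPM in 2-D and at 233 and 239 CPM in 3-D. Both 3-D libraries were lower than both 2-D libraries by a small margin. The log2 fold change was −0.05 (SE 0.03, 95% interval −0.11 to 0.02, adjusted p = 0.409). With library size alone ITGB5 passed the test at −0.11 with an adjusted p of 0.0384.

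ITGB8, the chain of a receptor for latent TGF-β (chr7:20330702-20415754, plus strand), had 7.32 and 6.69 CPM in 2-D and 6.67 and 6.64 CPM in 3-D. The libraries did not overlap, but 2-D replicate 2 lay just above the 3-D libraries, and counts were few, with 252 and 206 in 2-D and 137 and 119 in 3-D. The log2 fold change was −0.08 (SE 0.12, adjusted p = 0.783). Leaving out 2-D replicate 1 gave −0.0078, leaving out 2-D replicate 2 gave −0.14, and thinning of the deeper 2-D counts gave −0.0037.

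ITGB4, the partner of α6 in hemidesmosomes (chr17:75721328-75757818, plus strand), was measured at 5.90 and 6.04 CPM in 2-D and at 6.42 and 7.92 CPM in 3-D. The 3-D libraries were higher and differed from each other more than the 2-D libraries did. Its log2 fold change of 0.26 was the highest fitted among the 10 subunits, and its 95% interval of −0.02 to 0.54 included 0. The adjusted p was 0.275. Leaving out 3-D replicate 2, the higher of the 3-D values, gave 0.11, and leaving out 3-D replicate 1 gave 0.41.

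ITGAE, the chain of the E-cadherin receptor (chr17:3714628-3801188, minus strand), had the lowest fitted value. It was at 15.6 and 15.3 CPM in 2-D and at 12.7 and 12.9 CPM in 3-D, so that the conditions stood apart and the replicates lay close together. The log2 fold change was −0.27 (SE 0.08, 95% interval −0.45 to −0.09) with an adjusted p of 0.0655, just outside the threshold. With library size alone it was −0.34 and passed, at an adjusted p of 0.0221, a scaling that moved the median of all genes tested to −0.06. DESeq2 gave −0.27 with an adjusted p of 0.551. In edgeR, thinning of the deeper 2-D counts gave −0.24 with an adjusted p of 0.154. ITGB7, the β partner of ITGAE, was nearly undetected, with 16, 20, 16 and 10 counts in the 4 libraries. HASPIN, a kinase gene on the opposite strand inside ITGAE, overlaps 6.47% of the exon bases of ITGAE, and without knowing whether counting used strand the reads of the 2 genes cannot be told apart there. HASPIN had a log2 fold change of 0.15 (adjusted p = 0.187).

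**Figure D2:**
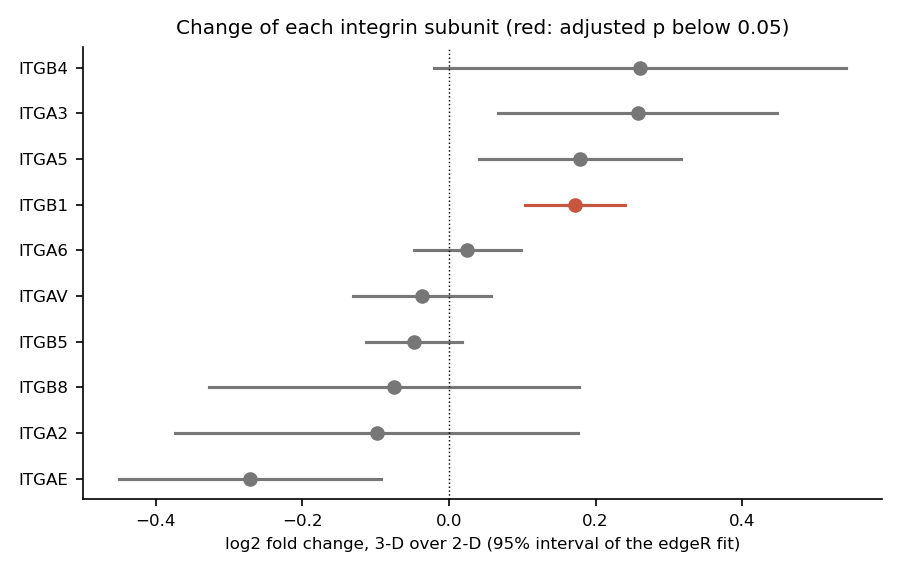
Log2 fold change of each integrin subunit, 3-D over 2-D (horizontal axis), with points for fitted values and lines for 95% intervals of the edgeR fit on 2 libraries per condition. ITGB1 (red) is the called member and lost its call with scaling by library size alone; the intervals of ITGA3, ITGA5 and ITGAE also leave out 0, but their adjusted p-values were 0.101, 0.116 and 0.0655.

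Levels of different genes were compared per length, as TPM (counts per base of length, scaled to sum to 1000000 in each library), within a condition only. With merged exon lengths, the order in 2-D was ITGB5 (115 ± 1.77 TPM, SD, n = 2), ITGB1 (109 ± 1.45), ITGA6 (92.4 ± 4.62), ITGA5 (14.0), ITGAV (10.7), ITGAE (7.19), ITGA3 (4.02), ITGA2 (2.96), ITGB4 (2.71) and ITGB8 (1.42). The chains ITGB5, ITGB1 and ITGA6 thus stood well above the rest, and only ITGA2 and ITGB4 overlapped with a neighbour. In 3-D, ITGB1 (116 ± 7.74 TPM) came before ITGB5 (104 ± 5.95) and ITGA6 (88.3 ± 1.30), followed by ITGA5 (14.9), ITGAV (9.83), ITGAE (5.61), ITGA3 (4.52), ITGB4 (3.07), ITGA2 (2.62) and ITGB8 (1.27). Again ITGB4 and ITGA2 were the only neighbours whose libraries overlapped.

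The order at the top depended on the length used. Merged exons of ITGB1 span 14561 bases over its 36 annotated transcripts, while its MANE Select transcript, the reference isoform, has 3735 bases. With MANE Select lengths ITGB1 came first in both conditions, at 297 ± 2.78 TPM in 2-D and 321 ± 19.2 TPM in 3-D, before ITGB5 at 118 and 109 TPM and ITGA6 at 74.3 and 72.2 TPM. ITGAV then ranked above ITGA5, at 20.6 against 17.0 TPM in 2-D, while in 3-D the libraries of these 2 genes overlapped, as did those of ITGAE and ITGA3. The genes ITGB1, ITGB5 and ITGA6 kept the first 3 places, and ITGB8 the last, with either length.

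**Figure D3:**
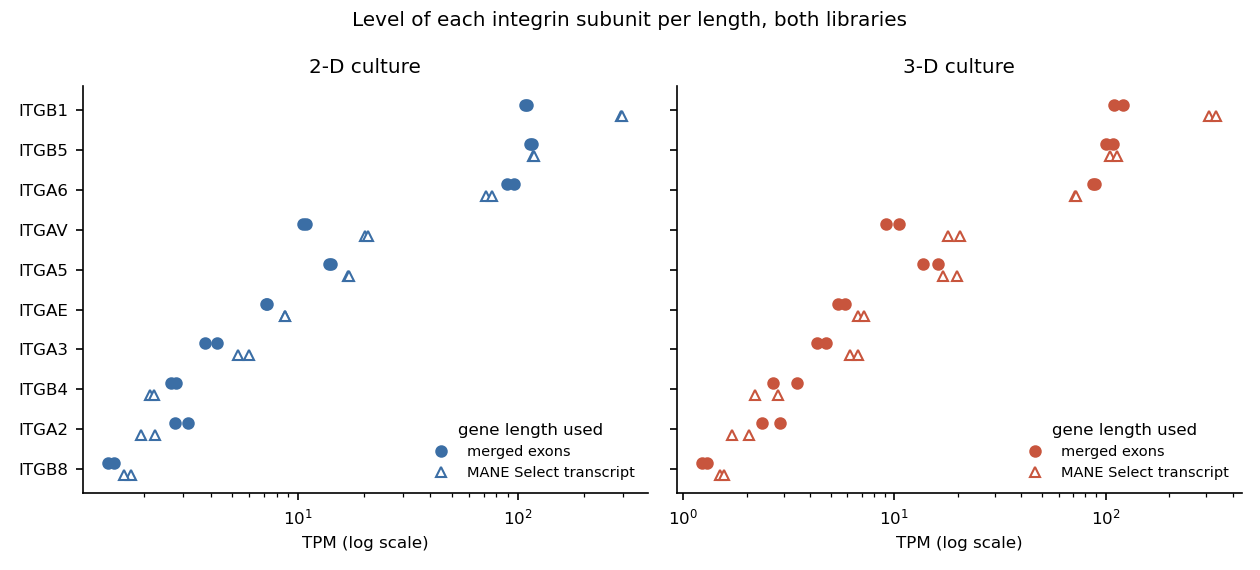
TPM of each integrin subunit (log scale) in both libraries of 2-D (left, blue) and 3-D (right, red) culture, with merged exon lengths (filled circles) and MANE Select transcript lengths (open triangles). ITGB1, ITGB5 and ITGA6 lie between 71.8 and 334 TPM in every library with either length, and the other members lie at 20.9 TPM or below.

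The balance of chains can be read from the same values. ITGB1 over the sum of the α chains that pair with it here (ITGA2, ITGA3, ITGA5, ITGA6 and ITGAV) was 0.897 and 0.861 in 2-D and 0.941 and 0.980 in 3-D with merged exons. With MANE Select lengths the ratio was 2.54 and 2.44 in 2-D and 2.68 and 2.75 in 3-D. The 3-D libraries were higher with either length, while whether the β1 message exceeded this sum depended on the length. ITGA6 made up 72.3% to 74.9% of that α sum with merged exons and 59.7% to 62.6% with MANE Select lengths. Of the β sum (ITGB1, ITGB4, ITGB5 and ITGB8), ITGB1 made up 47.9% and 47.8% in 2-D and 51.4% and 51.6% in 3-D with merged exons. With MANE Select lengths it made up 71.0% and 70.9% in 2-D and 73.8% and 74.0% in 3-D. These ratios were not tested.

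Of the 16 other α and β genes, 6 had a mean of at least 1 CPM. Of the 16, 11 passed the filter and none was called, beside 7.90% of all genes tested, with 0 at an unadjusted p below 0.05 in edgeR and 0 called by DESeq2. With 11 genes, a count of 0 does not set them apart from that share. Their fitted values were higher in 8 and lower in 3, with a median log2 fold change of 0.18, and the libraries of 4 of the 11 did not overlap, beside 50.5% of all genes tested. ITGA7, a laminin receptor chain known from muscle, was at 38.6 and 39.1 CPM in 2-D and 35.1 and 38.8 CPM in 3-D. ITGA9, a partner of β1, was at 6.85 and 7.76 CPM in 2-D and 7.98 and 8.87 CPM in 3-D (log2 fold change 0.21, SE 0.12, adjusted p = 0.351). ITGA1, a collagen receptor chain, was at 5.55 and 5.39 CPM in 2-D and 6.13 and 6.42 CPM in 3-D (0.20, SE 0.12). ITGA2B, ITGA11 and ITGAM lay between 1.004 and 3.795 CPM. The αV partners ITGB3, with 3 or 4 counts per library, and ITGB6, with 0 or 1, did not pass the filter, nor did ITGAD, ITGAL and ITGB2.

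Among the genes that act with integrins, more were called higher than lower. Of 82 listed ligands and partners, 80 were tested, 18 rose and 2 fell, beside 4.54% and 3.36% of all genes tested. Several of the 18, among them FN1, COL6A1, FLNA and PXN, had been named by the study as higher in 3-D on these same samples. The number that rose is therefore not independent evidence. For COL6A1 the study also reported an increase by qRT-PCR. The libraries of 50 of the 80 did not overlap (40 higher, 10 lower), beside 50.5% of all genes tested, and the median log2 fold change was 0.08. The 20 calls became 11 (10 higher) by DESeq2 and 13 (8 higher) with library size alone. With a 2-D library left out they became 13 (replicate 1) or 10 (replicate 2), and 30 with 3-D replicate 1 left out.

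Among the ligands, none of 11 laminin chains, the ligands of α3β1 and α6β1, was called, beside 7.90% of all genes tested, and 2 had an unadjusted p below 0.05, beside 4808 of 22555. LAMC1, the γ chain of most laminins, was at 575 and 560 CPM in 2-D and 602 and 603 CPM in 3-D (log2 fold change 0.09, SE 0.03, adjusted p = 0.116). LAMA5, the α chain of a laminin that supports ESC growth, was at 265 CPM in both 2-D libraries and at 264 and 293 CPM in 3-D. Of 15 genes for ligands of the RGD receptors, CCN1 and CCN2 among them, and for latent TGF-β and its binding proteins, 3 rose, beside 4.54% of all genes tested. FN1, which encodes fibronectin, was at 380 and 381 CPM in 2-D and 421 and 442 CPM in 3-D, a log2 fold change of 0.18 (SE 0.03, adjusted p = 0.0044). SPP1, which encodes osteopontin, rose by 0.20 (SE 0.03) from 449 and 450 to 510 and 522 CPM. TGFB1, whose latent form is a ligand of αVβ8, rose by 0.35 (SE 0.05) from 48.6 and 45.7 to 59.6 and 60.7 CPM. Vitronectin (VTN) was nearly undetected, at 0.35 to 0.83 CPM.

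Of 7 collagen genes, ligands of α2β1 and other collagen receptors, 4 rose, beside 4.54% of all genes tested. The highest fitted value was that of COL3A1, at 9.93 and 10.03 CPM in 2-D and 15.2 and 17.9 CPM in 3-D, a log2 fold change of 0.73 (SE 0.10, adjusted p = 0.000704). COL1A1 rose by 0.29 (SE 0.04), COL6A1 by 0.30 (SE 0.03) and COL4A2, a basement membrane chain, by 0.16 (SE 0.03). COL1A1 and COL3A1 are also on the list of 8 fibroblast markers, of which 6 were tested and 4 rose (with THY1 and POSTN), and whose summed level was 541 and 533 CPM in 2-D and 552 and 603 CPM in 3-D. DCN and LUM of that list stayed under 1 CPM in every library, and whether any fibroblasts had a part in the collagen values was not tested. CDH1, which encodes E-cadherin, the ligand of ITGAE with β7, was at 453 and 448 CPM in 2-D and 487 and 482 CPM in 3-D (log2 fold change 0.11, SE 0.03, adjusted p = 0.047).

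In the cytoplasm, 3 of 16 tested activators and inactivators rose, beside 4.54% of all genes tested. TLN1 encodes talin, which binds the β tail and activates the receptor. It rose by 0.12 (SE 0.03) from 266 and 259 to 278 and 294 CPM, with an adjusted p of 0.048, just inside the threshold. FLNA encodes filamin A, which competes with talin for the tail, and rose by 0.18 (SE 0.04) from 3110 and 3072 to 3376 and 3623 CPM. KANK1, a talin-binding protein, rose by 0.16 (SE 0.04). Of 16 tested adaptors and kinases, 5 rose, beside the same 4.54%. Among them were ILK (0.18, SE 0.05, adjusted p = 0.0492), a pseudokinase on the β1 tail, and its complex partner RSU1 (0.12, SE 0.03, adjusted p = 0.0469). Both passed only just. The rest were the focal adhesion proteins PXN (paxillin, 0.13, SE 0.03, adjusted p = 0.0193), ZYX (zyxin, 0.25, SE 0.05, adjusted p = 0.00746) and BCAR1 (0.23, SE 0.05, adjusted p = 0.00915). PTK2, the focal adhesion kinase, had a log2 fold change of −0.08 (SE 0.03, adjusted p = 0.173). VCL, vinculin, had 0.05 (SE 0.03, adjusted p = 0.477). Fitted values of the 16 were above 0 in 11 and below 0 in 5. The latter include LIMS1 (−0.17, SE 0.05, adjusted p = 0.0596) and CRK (−0.35, SE 0.11, adjusted p = 0.0666), neither called.

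At the membrane, 2 of 11 partners rose and 2 fell, beside 4.54% and 3.36% of all genes tested. SLC3A2, the heavy chain of amino acid transporters that binds β tails, fell by 0.18 on the log2 scale (SE 0.03, adjusted p = 0.00326), from 456 and 451 to 396 and 406 CPM. CD9, a tetraspanin found with β1 integrins, fell by 0.13 (SE 0.03, adjusted p = 0.0155), from 132 and 131 to 121 and 118 CPM. BSG, basigin, rose by 0.15 (SE 0.03) and CAV1, caveolin, by 0.14 (SE 0.03). None of 4 hemidesmosome genes, the partners of ITGB4, was called, beside 7.90% of all genes tested, and 1 had an unadjusted p below 0.05, beside 4808 of 22555. Of these, PLEC, the plectin gene that links ITGB4 to keratin, had a log2 fold change of 0.13 (SE 0.04, adjusted p = 0.0659).

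**Figure D4:**
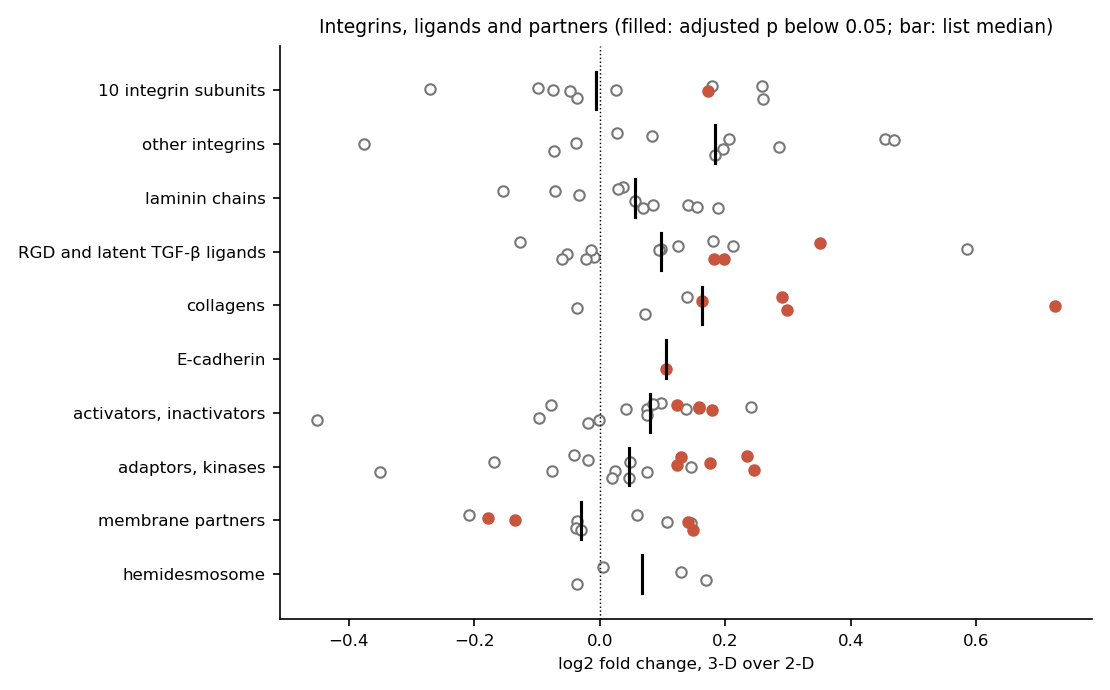
Log2 fold change, 3-D over 2-D (horizontal axis), of the 10 integrin subunits, the other integrin genes tested and each list of ligands and partners, with a point per gene, filled where called, and a bar at each list's median. The 10 subunits spread evenly about 0 with 1 filled point, ITGB1, a call lost with library size alone. Among ligands and partners, 20 of 80 genes are filled, beside 7.90% of all genes tested. These 20 calls became 11 by DESeq2 and 13 with library size alone.

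The genes whose pattern over the 4 libraries lay nearest to that of ITGB1, by the distance between centred log2 CPM, were CAMTA2 (0.0059), PLD3 (0.0061) and DNMT3B (0.0104), among 9257 protein-coding genes with a mean of at least 10 CPM. DNMT3B, a DNA methyltransferase, was at 1050 and 1052 CPM in 2-D and 1164 and 1203 CPM in 3-D. With 4 libraries many patterns are alike, and this is a description.

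**Figure D5:**
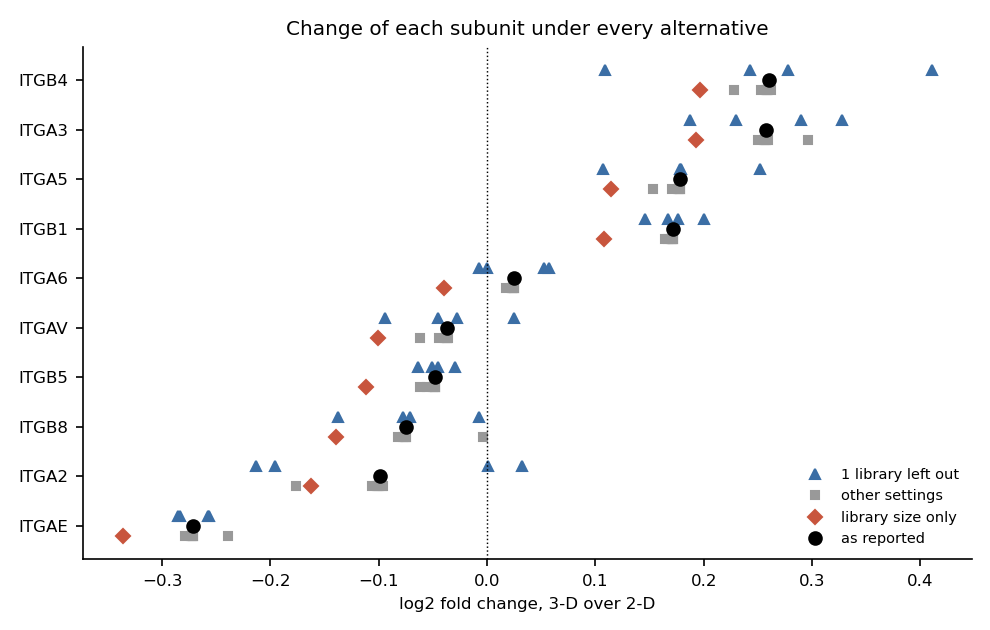
Log2 fold change, 3-D over 2-D (horizontal axis), of each subunit as reported (black), with 1 library left out (blue), with scaling by library size alone (red) and under the other alternatives (grey). All ITGB1 values lie between 0.11 and 0.20 and all ITGAE values between −0.34 and −0.24, while those of ITGA2, ITGA6 and ITGAV fall on both sides of 0.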

How the data were processed

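RNA-seq counts of 2 libraries of 2-D and 2 of 3-D grown Elf1 cells were used. Per the labels and methods, the authors trimmed reads with Trim Galore 0.6.3, mapped them to hg38 with HISAT2 2.1.0 and counted them per GENCODE release 30 gene with featureCounts 1.6.4. The deposited counts are whole numbers without normalization, 18276147 to 33833778 per library. Strand and multi-mapping settings were not given in the sources used here. The deposited normalized table, which also holds the authors' fold changes, standard errors, test statistics and p-values (DESeq2 2.11.40.6), was not used.

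Counts were fitted with edgeR 4.0.16 in R 4.3.3 (TMM, filterByExpr, quasi-likelihood test in legacy mode, condition alone, Benjamini-Hochberg adjustment over 22555 genes, threshold 0.05). Standard errors were the size of the log2 fold change over the square root of F. Of the identifiers, 60295 matched GENCODE release 44, and the other 269 held 0.122% of counts. Counts of the replicates differed by more than sampling noise (chi-square over its degrees of freedom 2.27 in 2-D and 3.92 in 3-D). Copies were sought with minimap2 2.31-r1302. Python 3.11.15 with pandas 2.3.3, numpy 2.4.6 and matplotlib 3.10.9 served for tables and figures. The fits were also run on simulated data. The changes put into those data were larger than any fitted to a member, so that run does not cover changes of the members' size.

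Members and gene lists were chosen with earlier results of these data known. All members were named, as were other integrin genes with a mean of at least 1 CPM, called genes of each list, ligands or partners of the called member, and the 3 genes nearest to it in pattern. A few list members that were not called, low integrin genes and HASPIN were named after their values were seen. Alternatives were DESeq2 1.42.0, run on the same 22555 genes without its independent filtering, and its size factors in the edgeR fit. Counts were also fitted with library size only, no filter, a minimum of 10 counts per library, and the replicate number as a block. Further alternatives were thinned 2-D libraries, edgeR without legacy mode, each library left out, and the length of the longest transcript. MANE Select lengths and the sum of ITGB1 and ITGB1P1 were added after seeing the data.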

Additional observations from a re-analysis of the deposited data

How the results depend on the processing

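ITGB1 was higher in 3-D grown cells under all 13 alternatives, with log2 fold changes of 0.11 to 0.20 and adjusted p-values of 6.27e-08 to 0.0528, and lost its call with library size only (0.11, adjusted p = 0.0528). Under that scaling, which moved the median of all genes tested to −0.06, 2 members were called, ITGAE (−0.34) and ITGB5 (−0.11), both lower. Leaving out a library gave 1 to 2 called members, the second being ITGA5 without 3-D replicate 1. No alternative called any of the other integrin genes. Called ligands and partners numbered 11 by DESeq2, 13 with library size only and 10 to 30 with a library left out. Over all genes, 733 were called by DESeq2 and 974 to 2643 with a library left out, in place of 1782. Library size only called 514 higher of 2393, in place of 1024 higher of 1782. Signs turned for ITGA6 (−0.0396 with library size only, and from −0.0079 to 0.0572 with a library left out), ITGA2 (−0.2133 to 0.032 with a library left out) and ITGAV (−0.0944 to 0.0244 with a library left out). The causes were not tested. A fit that leaves out a library assumes that the lone library varies like the other condition's pair.

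Libraries with the same replicate number did not deviate together (correlation −0.0079 over genes). Sampling noise enters this value too, so it cannot show whether the numbers pair the samples. With a replicate block, 1 member (ITGB1, 0.17, adjusted p = 0.00123), 24 partner genes and 2167 of all genes were called.

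Lengths of the longest transcript moved the levels of 19 of 20 member and condition values by more than 1 SD and put ITGB1 first in both conditions (230 TPM in 2-D, 246 in 3-D). Members with few counts, ITGA2, ITGB4 and ITGB8, have standard errors of 0.12 to 0.13, beside 0.03 for ITGB1.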
